A study of Bos taurus with 12 samples.

Results

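Translation initiation and elongation factors were followed through early development of in vitro produced embryos of Japanese Black cattle. Members were all genes whose symbol begins with EIF and a digit, or with EEF1 or EEF2, on a probe set that names 1 gene. There were 50 such genes of 9155 named genes, and 67 of 24016 tested probe sets. Each gene was read by its brightest probe set over all 12 arrays. The 4 groups, with 3 pools each, were day 7 expanded blastocysts from prepubertal heifers, day 7 expanded blastocysts from adult cows, day 3 embryos of 8 to 16 cells from prepubertal heifers, and day 3 embryos of 8 to 16 cells from adult cows. The heifers were 9 to 12 months old and their ovaries were taken on farms with a spay device, whereas the ovaries of adult cows came from an abattoir. In both donor groups the oocytes were matured and fertilized in vitro with frozen semen of a Japanese Black bull, and the zygotes were cultured in the same media. A pool held 10 blastocysts, or 50 embryos collected 70 to 72 h after insemination, chosen for normal morphology. The labels call the pools biological replicates and do not say whether pools shared animals, bull or culture day. Stage and number of embryos per pool cannot be told apart here, nor can donor age and the way ovaries were obtained. Because whole embryos were pooled, fewer cells of a type and less RNA per cell cannot be told apart.

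Protein synthesis starts when the small ribosomal subunit, loaded with initiator tRNA by eIF2, is brought to the capped end of an mRNA by the eIF4 factors and eIF3 and scans for a start codon under the control of eIF1 and eIF1A. The exchange factor eIF2B recharges eIF2 with GTP, and stress kinases slow initiation by phosphorylating eIF2. Elongation then runs on eEF1A, which delivers aminoacyl-tRNA, on the eEF1B exchange complex that recharges it, and on eEF2, which moves the ribosome along. The bovine embryo lives at first on mRNAs stored in the oocyte and switches on its own genome at about the stage of the day 3 pools. EIF1AX, which encodes eIF1A, has been used in cattle as a marker of that activation.

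The values are intensities on a linear scale, given here as the log2 signal, meaning log2(signal + 16), where a difference of 1 is a doubling. The background of an array was set as its brightest Bacillus subtilis control probe set. It lay between 122 and 424 on 11 arrays and at 1664 on replicate 3 of the prepubertal 8-16-cell embryos, which stands apart: 1255 probe sets exceeded background there, against 4297 to 8500 on the other arrays. The ratio of the hybridization controls, prepubertal over adult, was 3.03 in 8-16-cell embryos and 1.06 in blastocysts. Over the stages, blastocyst over 8-16-cell, it was 0.708, and the part of these controls in the results was not tested. The stage labels were checked against markers. All 5 trophectoderm markers on the array were higher in blastocysts than in 8-16-cell embryos, with LGALS3 at least 189-fold higher, and 4 of 6 oocyte genes were lower, with BMP15 at least 76.1-fold lower. The log2 of the summed trophectoderm signal lay between 16.33 and 17.18 in blastocysts, against 7.98 to 9.62 in 8-16-cell embryos, and that of the oocyte genes between 7.93 and 10.75 in blastocysts, against 14.92 to 18.01 in 8-16-cell embryos. The part of this change in cell types in the stage differences was not tested. The inner cell mass markers SOX2, above background on 0 arrays, and POU5F1, with a log2 difference of 2.98 (adjusted p = 0.0670, limma), did not pass.

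Of the 50 translation factors, 14 were above background on all 12 arrays and 2, EEF1A2 and EEF2K, on none. Among all named genes the corresponding shares were 4.42% and 15.3%. The number of members above background was 39, 39 and 37 in prepubertal blastocysts and 32, 36 and 38 in adult blastocysts, against 26, 32 and 14 in prepubertal 8-16-cell embryos and 34, 37 and 27 in adult 8-16-cell embryos. The share of all probe sets above background also varied. It was 33.8% to 35.4% in prepubertal and 25.4% to 29.2% in adult blastocysts. In 8-16-cell embryos it was 5.23% to 22.2% for prepubertal and 22.8% to 29.8% for adult donors. The array with 14 is the one of high background. It held the highest of the 12 values for 9 members, and for 27.8% of all probe sets. It held the lowest for 6 members, and for 3.92% of all probe sets. The spread between pools was wide: the median SD within a group was 1.38 over the members, 0.674 for those above background on every array and 1.60 for the rest.

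**Figure D1:**
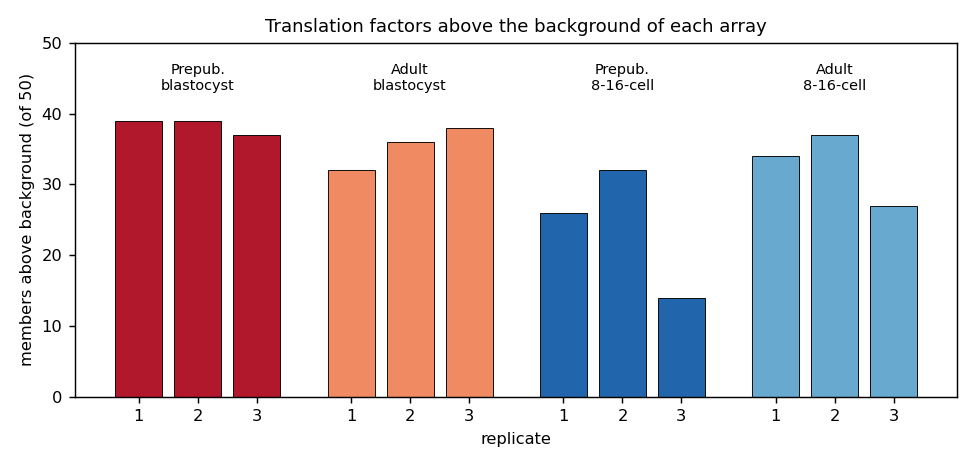
Number of the 50 members above the background of each array (bars from 0), for replicates 1 to 3 of prepubertal blastocysts, adult blastocysts, prepubertal 8-16-cell embryos and adult 8-16-cell embryos. Blastocyst arrays hold 32 to 39 members above background, and replicate 3 of the prepubertal 8-16-cell embryos holds 14. Of all probe sets, 25.4% to 35.4% exceeded background on the blastocyst arrays and 5.23% on that replicate.

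Over both donor groups, 6 translation factors were higher in blastocysts than in 8-16-cell embryos and 2 were lower. EEF1G and EEF1A1 of the elongation machinery, EIF2S1 of eIF2, EIF2B4 of eIF2B, and EIF3I and EIF3D of eIF3 rose. EIF1, which guards the choice of start codon, and EIF4A2, an mRNA helicase, fell. These 8 passed an adjusted p of 0.05 in the mean of both donor groups' stage differences (limma, adjusted by Benjamini and Hochberg over all 24016 probe sets), and they are 16% of the members. In that comparison 6.35% of named genes were called higher and 3.53% lower, and 3.90% and 2.51% of all probe sets, and whether the members' share differs from that of other genes was not tested. Only 3 members had 6 blastocyst arrays apart from all 6 8-16-cell arrays, EIF2S1 on the higher side, and EIF1 and EIF4A2 on the lower. Over all probe sets, 2.17% were apart on the higher side and 1.27% on the lower.

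The median stage difference of the members was 0.36, against -0.17 for all probe sets. Counting members at background in 1 group at their bound, it was 0.05. Members at background in both groups, or with a bound under 1-fold, were counted there as unchanged. By role, the median was 1.34 for the 7 members grouped with elongation. It was 1.01 for the 12 eIF3 subunits, 0.98 for the 4 eIF2B subunits and 0.95 for the 10 cap-binding, scaffold and helicase factors. For the 9 factors of start codon choice and the ternary complex it was 0.09. It was -1.56 for the 7 kinases and other regulators, which were above background on only 0 to 4 of the 12 arrays. In adult embryos alone these medians were, in the same order, 1.21, 0.22, 0.75, 0.54, -0.00012 and -1.25, against 0.08 for all probe sets. In prepubertal embryos alone they were 1.29, 1.62, 1.22, 1.19, 0.16 and -1.71, against -0.37 for all probe sets. The role medians over both donor groups kept their signs under quantile normalization and with each array centred on its median. These settings moved the median of all probe sets to -0.10 and -0.15. Without the array of high background, 8 members were called higher and 4 lower, where 4.10% and 2.86% of all probe sets were. EIF3I was then no longer called, at an adjusted p of 0.0502, and EEF1B2, EIF1AX, EIF1B, EIF3CL and EIF4E2 were called in addition.

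**Figure D2:**
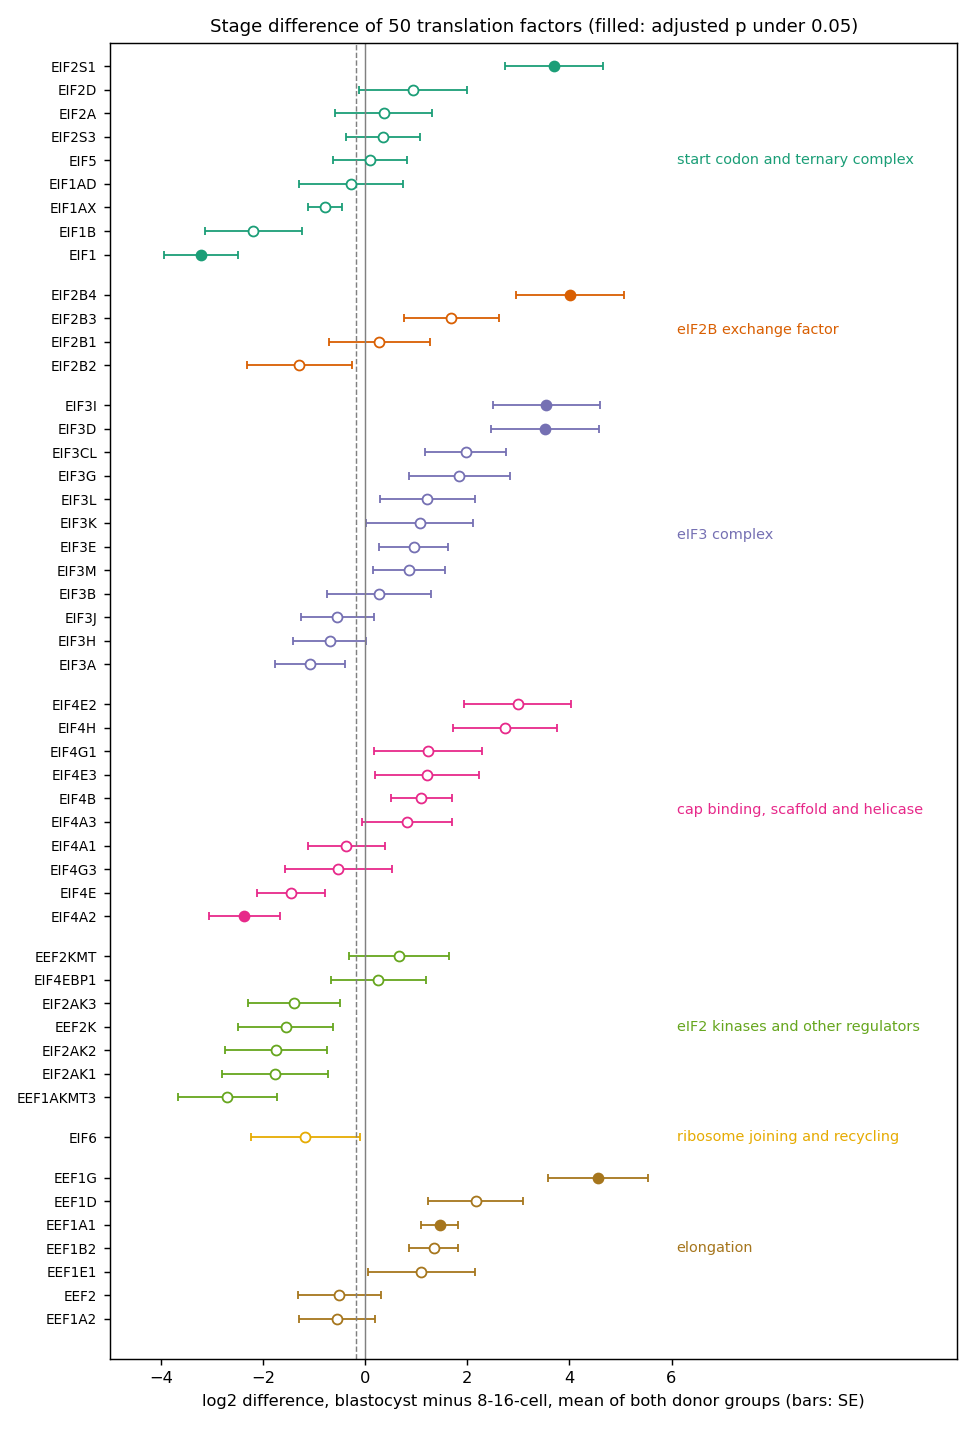
Log2 difference of each of the 50 members, blastocyst minus 8-16-cell embryos, as the mean of both donor groups (points, with bars of 1 SE), by role. Filled points are the 8 members past an adjusted p of 0.05, the solid line is 0 and the dashed line is the median of all probe sets, -0.17. Members grouped with elongation lie mostly to the right of both lines and 5 of the 7 kinases and other regulators to the left. These 7 were at background on most arrays.

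Among the factors that select the start codon, EIF1 was lower in blastocysts on every array. It read 12.59, 9.92 and 10.15 in prepubertal blastocysts and 12.13, 12.37 and 10.68 in adult blastocysts, against 13.57, 14.18 and 15.51 in prepubertal 8-16-cell embryos and 14.92, 14.22 and 14.74 in adult 8-16-cell embryos. Both donor groups separated by stage without overlap. EIF1 fell by 3.22 ± 0.72 on the log2 scale (SE, adjusted p = 0.000803, limma), or 9.29-fold. Its near copy EIF1B differed by -2.20 ± 0.95 (SE, adjusted p = 0.187, limma). With the array of high background left out, EIF1B passed at -2.72 (adjusted p = 0.0409, limma). A second EIF1 probe set was above background on 0 arrays. When it was averaged with the first, the EIF1 difference was -1.67 and no longer passed (adjusted p = 0.318, limma).

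EIF1AX was above background on all 12 arrays, with an SD between pools of 0.13 to 0.85. It read 16.58, 16.65 and 16.25 in prepubertal blastocysts and 16.52, 15.68 and 17.06 in adult blastocysts, against 17.59, 17.37 and 17.58 in prepubertal 8-16-cell embryos and 17.28, 15.99 and 17.60 in adult 8-16-cell embryos. The prepubertal arrays separated by stage, with the 8-16-cell embryos above the blastocysts, and the adult arrays overlapped. The difference of -0.78 ± 0.33 (SE) did not pass (adjusted p = 0.177, limma). Without the array of high background it was -0.76 and passed (adjusted p = 0.0431, limma). The named genes with the most similar profile over the 12 arrays were STX10, ADTRP, MAX, GJB2 and ADGRL4, with Pearson correlations of 0.876, 0.869, 0.865, 0.863 and 0.860. These are a description of 12 points that share stage, donor and scaling, and the 5 genes exceeded background on 0 to 4 arrays.

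Within eIF2, the complex that carries the initiator tRNA, EIF2S1 rose and EIF2S3 did not pass. EIF2S1 encodes the alpha subunit, the one the stress kinases phosphorylate. Its log2 signal was 13.50, 12.62 and 12.25 in prepubertal blastocysts and 13.09, 12.60 and 12.24 in adult blastocysts, against 8.07, 10.06 and 9.57 in prepubertal 8-16-cell embryos and 11.93, 9.95 and 4.53 in adult 8-16-cell embryos. The blastocyst arrays agree closely and the 8-16-cell arrays scatter widely. All 6 blastocyst arrays exceeded background, but only 3 of the 6 8-16-cell arrays did. EIF2S1 rose by 3.70 ± 0.96 (SE, adjusted p = 0.00501, limma), or 13.0-fold, a fold that takes the 8-16-cell signals at background as read. The call depends on the lowest array: without replicate 3 of the adult 8-16-cell embryos the difference was 2.63 and the adjusted p 0.0776. The gamma subunit EIF2S3 differed by 0.35 ± 0.72 (SE). Within each array, EIF2S1 minus EIF2S3 averaged -0.35 ± 1.03 in blastocysts and -3.70 ± 2.94 in 8-16-cell embryos (SD, n = 6 each), with overlapping arrays.

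EIF2D, which can place tRNA on the ribosome without eIF2, showed no stage pattern. It read 6.32, 8.42 and 8.01 in prepubertal blastocysts and 7.27, 10.68 and 11.89 in adult blastocysts, against 6.95, 5.31 and 9.76 in prepubertal 8-16-cell embryos and 10.64, 9.45 and 4.86 in adult 8-16-cell embryos. The groups overlapped throughout. EIF5, the GTPase-activating protein of eIF2, differed by 0.09, or by -0.91 without the array of high background, EIF2A by 0.36 and EIF1AD by -0.28, and none of the 3 passed.

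Of the 4 eIF2B subunits measured, EIF2B4 rose. It encodes the delta subunit, which belongs to the regulatory part of the complex. EIF2B4 read 8.76, 8.18 and 11.63 in prepubertal blastocysts and 9.75, 10.61 and 12.00 in adult blastocysts, against 4.69, 5.12 and 9.50 in prepubertal 8-16-cell embryos and 8.51, 4.50 and 4.53 in adult 8-16-cell embryos. All 6 blastocyst arrays exceeded background, as did 1 of the 6 8-16-cell arrays. The rise was 4.01 ± 1.05 (SE, adjusted p = 0.00561, limma), or 16.1-fold. In adult embryos alone the difference was 4.94 ± 1.49 (SE, adjusted p = 0.0504, limma), the member nearest to passing there. With every signal raised to the highest background of any array the EIF2B4 difference shrank to 0.37 and did not pass.

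EIF2B3 encodes the gamma subunit, part of the catalytic core of eIF2B. Its log2 signal was 8.35, 4.53 and 8.45 in prepubertal blastocysts and 5.65, 8.75 and 8.77 in adult blastocysts, against 5.47, 5.34 and 6.64 in prepubertal 8-16-cell embryos and 5.27, 6.66 and 5.03 in adult 8-16-cell embryos. It was above background on 4 arrays, all of blastocysts, and the difference of 1.69 ± 0.93 (SE) did not pass (adjusted p = 0.360, limma). The beta subunit EIF2B2 read 10.57, 8.52 and 6.82 in prepubertal blastocysts and 11.41, 9.17 and 8.48 in adult blastocysts, against 8.91, 9.43 and 8.98 in prepubertal 8-16-cell embryos and 14.31, 10.52 and 10.55 in adult 8-16-cell embryos. One adult 8-16-cell pool, at 14.31, lay far above the other arrays, and the difference of -1.29 ± 1.02 (SE) did not pass. EIF2B1, the alpha subunit, differed by 0.28.

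The eIF3 complex, which holds the small ribosomal subunit and bridges it to the mRNA, had 12 measured subunits, of which 2 rose, none fell and 10 did not pass. EIF3I read 11.65, 12.70 and 9.20 in prepubertal blastocysts and 9.96, 11.14 and 8.94 in adult blastocysts, against 7.77, 8.99 and 5.83 in prepubertal 8-16-cell embryos and 6.74, 8.00 and 4.96 in adult 8-16-cell embryos. EIF3D, a subunit that can itself bind the cap of some mRNAs, read 11.08, 9.58 and 9.35 in prepubertal blastocysts and 13.90, 9.79 and 10.67 in adult blastocysts, against 8.02, 5.75 and 5.60 in prepubertal 8-16-cell embryos and 4.38, 11.02 and 8.48 in adult 8-16-cell embryos. Both genes were above background on all 6 blastocyst arrays, and on few 8-16-cell arrays (1 for EIF3I and 2 for EIF3D). EIF3I rose by 3.55 ± 1.05 (SE, adjusted p = 0.0186, limma) and EIF3D by 3.52 ± 1.06 (SE, adjusted p = 0.0225, limma). Both calls were fragile: of 22 other settings, 6 ended the EIF3I call and 5 the EIF3D call. In prepubertal embryos alone EIF3D read at least 1.58-fold higher in blastocysts but did not pass (adjusted p = 0.231, limma), and all 3 of those 8-16-cell arrays were at background.

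Other eIF3 subunits showed different patterns. EIF3A, the largest subunit and a scaffold of the complex, read 12.25, 13.25 and 11.15 in prepubertal blastocysts and 13.40, 13.44 and 12.92 in adult blastocysts, against 14.36, 13.95 and 14.65 in prepubertal 8-16-cell embryos and 14.19, 12.78 and 12.93 in adult 8-16-cell embryos. Its prepubertal arrays separated by stage, with blastocysts the dimmer, and its adult arrays did not. The difference over both was -1.08 ± 0.68 (SE, adjusted p = 0.459, limma). EIF3E read 13.36, 14.02 and 13.35 in prepubertal blastocysts and 15.12, 13.74 and 14.82 in adult blastocysts, against 13.93, 13.84 and 8.05 in prepubertal 8-16-cell embryos and 14.82, 14.13 and 13.95 in adult 8-16-cell embryos. Here 1 array decides the value: the array of high background, at 8.05, lies below its own background, and the difference of 0.95 became -0.025 without it. EIF5, EIF3M and EIF4A3 were also low on that array, at 8.59, 9.85 and 7.01, where the other prepubertal 8-16-cell pools read 10.47 to 15.01. Without it their stage differences were -0.91, 0.33 and 0.096. Other small differences also moved by over 1.5 times without it, and none of them passed. They were those of EEF1E1 to 1.81, EIF2D to 1.54, EEF2 to -0.87, EIF2AK3 to -0.66 and EIF1AD to -0.55. The rest were EIF3H to -0.42, EIF4EBP1 to 0.41, EIF2B1 to 0.16 and EEF1A2, at background on every array, from -0.55 to -0.039.

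EIF3G, an RNA-binding subunit, was above background on 4 arrays. It read 8.62, 10.06 and 10.36 in prepubertal blastocysts and 8.24, 5.92 and 5.46 in adult blastocysts, against 5.65, 8.19 and 6.84 in prepubertal 8-16-cell embryos and 4.40, 7.44 and 5.05 in adult 8-16-cell embryos. The 3 prepubertal blastocyst pools were the brightest of all, and the stage difference of 1.85 ± 0.99 (SE) did not pass. EIF3J, a loosely attached subunit, was above background on every array and is described with the donor comparison. The remaining subunits were EIF3CL at 1.97, EIF3L at 1.22, EIF3K at 1.07, EIF3M at 0.86, EIF3B at 0.27 and EIF3H at -0.69, none of which passed.

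Among the cap-binding, scaffold and helicase factors, 1 of 10 fell, none rose and 9 did not pass. EIF4A2, which unwinds the leader of mRNAs, read 13.03, 11.81 and 12.01 in prepubertal blastocysts and 11.15, 11.34 and 12.41 in adult blastocysts, against 14.37, 13.35 and 16.27 in prepubertal 8-16-cell embryos and 13.56, 14.92 and 13.48 in adult 8-16-cell embryos. No blastocyst array reached any 8-16-cell array. EIF4A2 fell by 2.37 ± 0.70 on the log2 scale (SE, adjusted p = 0.0185, limma), or 5.15-fold. The call was lost without replicate 2 of the adult 8-16-cell embryos (adjusted p = 0.0811) or replicate 2 of the prepubertal blastocysts (0.0527), when the variance was not allowed to follow the mean signal (0.0783), and with signals raised to the highest background (0.0520). The other cytosolic helicase, EIF4A1, differed by -0.37 ± 0.75 (SE). Within arrays, EIF4A2 minus EIF4A1 averaged -0.46 ± 0.96 in blastocysts and 1.54 ± 1.24 in 8-16-cell embryos (SD, n = 6 each). The arrays of the stages overlapped. No test result is quoted for the pair, since it was set side by side after EIF4A2 had been called.

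EIF4E2, a cap-binding protein known to repress the mRNAs it holds, came closest to passing on the higher side. It read 10.15, 11.78 and 12.06 in prepubertal blastocysts and 8.08, 10.83 and 8.72 in adult blastocysts, against 7.18, 6.75 and 7.99 in prepubertal 8-16-cell embryos and 6.48, 8.97 and 6.30 in adult 8-16-cell embryos. All 6 blastocyst arrays and 1 of the 6 8-16-cell arrays exceeded background. The difference was 2.99 ± 1.04 (SE, adjusted p = 0.0645, limma). A second EIF4E2 probe set, above background on 0 arrays, differed by -1.38. EIF4H, a partner of the helicase, differed by 2.74 ± 1.02 (SE, adjusted p = 0.0925, limma).

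EIF4B, which stimulates the helicase, read 14.59, 14.06 and 15.53 in prepubertal blastocysts and 14.53, 13.98 and 14.60 in adult blastocysts, against 13.30, 12.95 and 13.85 in prepubertal 8-16-cell embryos and 14.02, 14.15 and 12.44 in adult 8-16-cell embryos. Its prepubertal arrays separated by stage, with blastocysts the brighter, and the adult arrays overlapped. The difference was 1.10 ± 0.60 (SE, adjusted p = 0.351, limma). EIF4E, the cap-binding protein of general initiation, differed by -1.45 ± 0.66 (SE, adjusted p = 0.223, limma), with blastocysts the dimmer without overlap in each donor group taken alone. EIF4G1 and EIF4G3, the scaffolds that join EIF4E to the helicase, differed by 1.23 and -0.52 and did not pass. EIF4A3, a helicase of the exon junction complex, differed by 0.81.

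The kinases and other regulators were dim, above background on 0 to 4 of the 12 arrays, and none of the 7 passed. In prepubertal embryos all 7 fitted differences were negative, and in adult embryos 5 of 7, but most rest on signals at background, and without the array of high background that of EIF2AK3 in prepubertal embryos was 0.78. EEF1AKMT3, an enzyme that methylates eEF1A, had the smallest p. It read 5.81, 7.15 and 5.21 in prepubertal blastocysts and 6.87, 4.55 and 4.54 in adult blastocysts, against 8.69, 9.17 and 9.24 in prepubertal 8-16-cell embryos and 8.62, 7.14 and 7.46 in adult 8-16-cell embryos. Every blastocyst array was at background and 3 of the 8-16-cell arrays were above it. The difference of -2.70 ± 0.97 (SE) did not pass (adjusted p = 0.0762, limma), and as a bound it was at least 1.44-fold lower in blastocysts.

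EIF2AK1, the heme-regulated eIF2 kinase, read 6.12, 5.33 and 6.55 in prepubertal blastocysts and 7.31, 6.58 and 10.66 in adult blastocysts, against 8.01, 9.26 and 9.98 in prepubertal 8-16-cell embryos and 9.99, 8.67 and 7.23 in adult 8-16-cell embryos. Its difference of -1.76 ± 1.03 (SE) did not pass (adjusted p = 0.405, limma). EIF2AK2, the kinase activated by double-stranded RNA, read 7.85, 6.95 and 5.51 in prepubertal blastocysts and 4.50, 4.65 and 8.17 in adult blastocysts, against 7.23, 8.34 and 9.88 in prepubertal 8-16-cell embryos and 10.75, 4.47 and 7.47 in adult 8-16-cell embryos. Stages overlapped for both kinases. EIF2AK3, the kinase of the endoplasmic reticulum, differed by -1.40, EEF2K, which inactivates eEF2, by -1.56 with every array at background, and EEF2KMT, which methylates eEF2, by 0.67. EIF4EBP1, the inhibitor of EIF4E, differed by 0.26 and is taken up with the donor comparison.

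EIF6, which keeps the large ribosomal subunit apart from the small one, was the single member of its role. It read 10.30, 9.06 and 4.76 in prepubertal blastocysts and 5.93, 11.35 and 10.50 in adult blastocysts, against 11.62, 10.01 and 8.68 in prepubertal 8-16-cell embryos and 12.59, 10.03 and 5.99 in adult 8-16-cell embryos. The pools of each group spanned several units, and the difference of -1.17 ± 1.07 (SE) did not pass.

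Of the 7 members grouped with elongation, EEF1E1 among them, 2 rose between the stages, none fell and 5 did not pass. EEF1G, a structural subunit of the eEF1B complex, had the largest stage difference of the members over all 12 arrays; without the array of high background that of EIF2B4 was larger, at 4.78 against 4.44. It read 13.56, 13.41 and 13.19 in prepubertal blastocysts and 12.88, 12.14 and 10.80 in adult blastocysts, against 7.59, 5.06 and 5.64 in prepubertal 8-16-cell embryos and 10.20, 8.49 and 11.70 in adult 8-16-cell embryos. The 3 prepubertal 8-16-cell pools were at background and the 9 others above it. EEF1G rose by 4.55 ± 0.98 (SE, adjusted p = 0.000386, limma), a call that held in all 22 other settings. In prepubertal embryos it rose at least 16.5-fold (fitted difference 7.29 ± 1.38, SE, adjusted p = 0.000126, limma). In adult embryos the difference was 1.81 ± 1.38 (SE, adjusted p = 0.743, limma), and the stages overlapped.

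Another pair of eEF1B subunits carry the exchange activity. EEF1B2 differed by 1.34 ± 0.48 (SE, adjusted p = 0.0786, limma) and passed without the array of high background, at 1.54 (adjusted p = 0.00328, limma). EEF1D differed by 2.17 ± 0.93 (SE, adjusted p = 0.181, limma). Within arrays, EEF1G minus EEF1B2 averaged -3.07 ± 1.08 in blastocysts and -6.28 ± 2.98 in 8-16-cell embryos (SD, n = 6 each), with overlapping arrays.

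EEF1A1, which encodes the main form of eEF1A, read 16.55, 17.38 and 17.88 in prepubertal blastocysts and 17.12, 16.55 and 17.28 in adult blastocysts, against 15.86, 15.15 and 16.95 in prepubertal 8-16-cell embryos and 15.65, 15.07 and 15.35 in adult 8-16-cell embryos. The adult stages were apart, and 1 prepubertal 8-16-cell pool, on the array of high background, reached into the blastocyst range. EEF1A1 rose by 1.46 ± 0.37 (SE, adjusted p = 0.00357, limma), or 2.75-fold. The call was lost when the variance was not allowed to follow the mean signal (adjusted p = 0.357) and when all signals were raised to the top background level (adjusted p = 0.105). EEF1A2, the form of muscle and neurons, read 4.32, 6.92 and 5.29 in prepubertal blastocysts and 6.09, 5.29 and 4.58 in adult blastocysts, against 4.71, 7.83 and 9.33 in prepubertal 8-16-cell embryos and 4.38, 4.77 and 4.78 in adult 8-16-cell embryos. All of these are at background, so no fold is given. EEF2 differed by -0.51 ± 0.81 (SE) and EEF1E1, which despite its name sits in the complex of tRNA synthetases, by 1.10 ± 1.05 (SE).

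**Figure D3:**
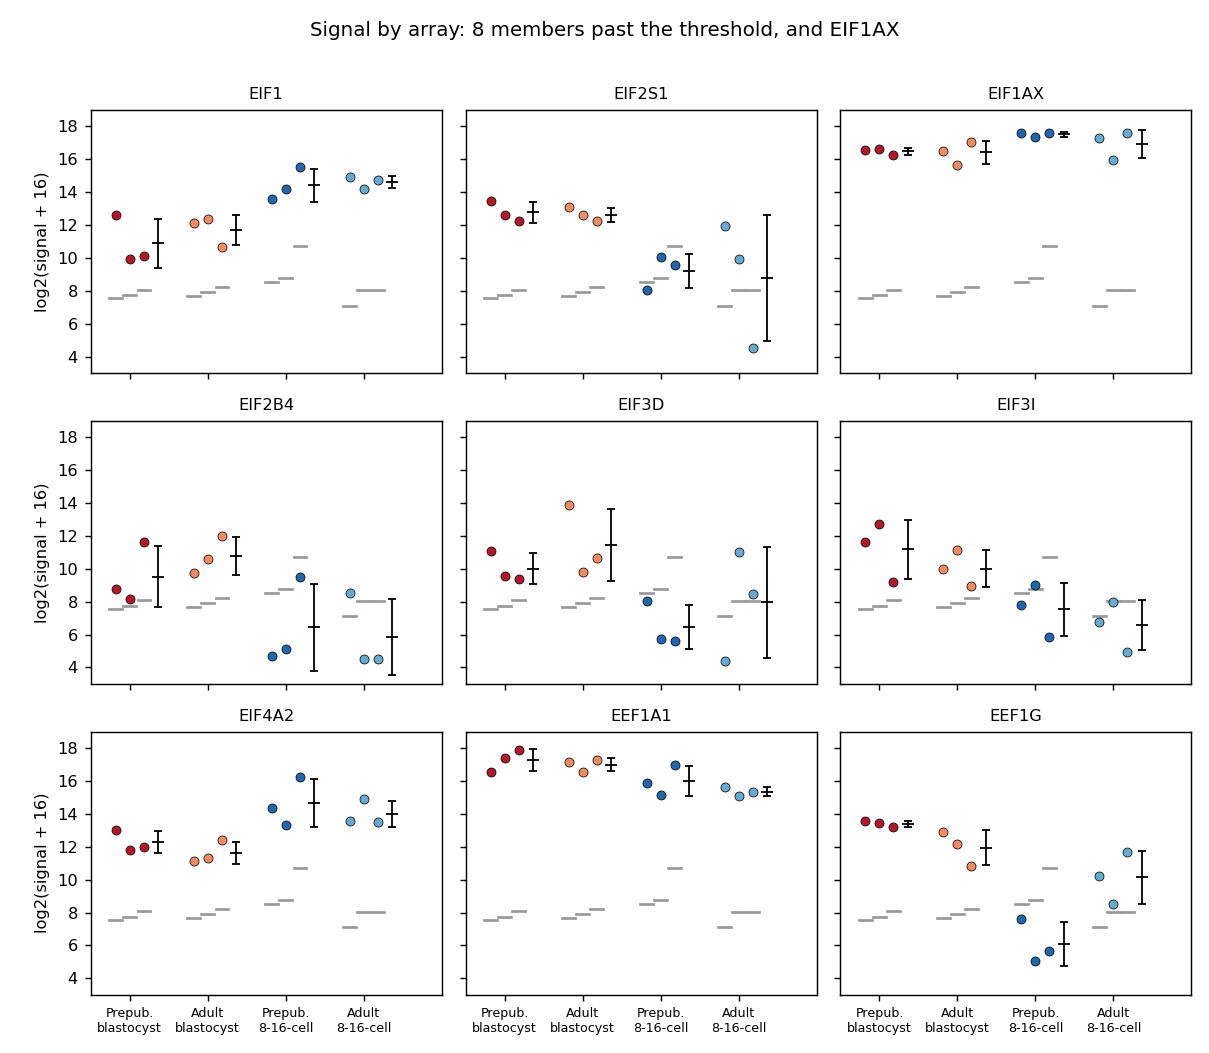
Log2(signal + 16) of the 8 members past the threshold and of EIF1AX on each array (points), with the group mean and SD (black bars, n = 3) and each array's background (grey dashes). EIF2S1 lies higher in blastocysts, and EIF1 and EIF4A2 lower, without overlap, and EEF1G is at background in all 3 prepubertal 8-16-cell pools.

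The array reads EEF1A1 with several more probe sets, and the size of the change depended on which was read. A second probe set of the gene read 12.36, 11.73 and 13.13 in prepubertal blastocysts and 13.24, 12.47 and 13.20 in adult blastocysts, against 8.69, 7.79 and 9.87 in prepubertal 8-16-cell embryos and 7.32, 7.45 and 7.45 in adult 8-16-cell embryos. It rose by 4.59 ± 0.97 (SE, adjusted p = 0.000295, limma), where the brightest probe set rose by 1.46. On 4 of the 6 8-16-cell arrays this second probe set was at background. With those signals raised to the background of their array the difference was 4.09, and the stages still did not overlap. Affymetrix also placed control probe sets along EEF1A1 to follow the length of the labelled material, and these were not among the tested probe sets. The control at the 3′ end averaged 12.68 ± 0.47 in blastocysts and 7.46 ± 1.14 in 8-16-cell embryos (SD, n = 6 each), and it was at background on 5 of the 6 8-16-cell arrays. With those raised to the background of their array it was 4.03 higher in blastocysts on the log2 scale, still without overlap. The control at the 5′ end averaged 16.08 ± 0.70 in blastocysts and 14.02 ± 1.32 in 8-16-cell embryos, 2.06 higher in blastocysts (exact permutation test, p = 0.00433, adjusted p = 0.0130). The control in the middle averaged 11.83 ± 1.24 in blastocysts and 11.26 ± 3.12 in 8-16-cell embryos, and the difference of 0.57 did not pass (exact permutation test, p = 0.699).

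The 3′ and 5′ controls of EEF1A1 cannot be set against each other in 8-16-cell embryos. Measured values of 3′ minus 5′ averaged -3.40 ± 0.86 in blastocysts and -6.56 ± 1.26 in 8-16-cell embryos (SD, n = 6 each). With signals raised to background the 8-16-cell values reached up to -0.76, above the lowest blastocyst value of -4.25, so no difference between the stages is called. EIF4E has controls of the same kind, and its 3′, middle and 5′ controls differed by -0.73, -0.46 and -0.10 between the stages. None of these 3 passed, and the 5′ control was at background on 3 of the 6 8-16-cell arrays. The exact tests were adjusted over 12, which include within-array differences of 4 pairs of members and of the ends of both genes. The smallest p that such an exact test can give here is 0.00216. The fold of EEF1A1 is given per probe set, and the part of RNA integrity or of amplification in it was not tested.

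**Figure D4:**
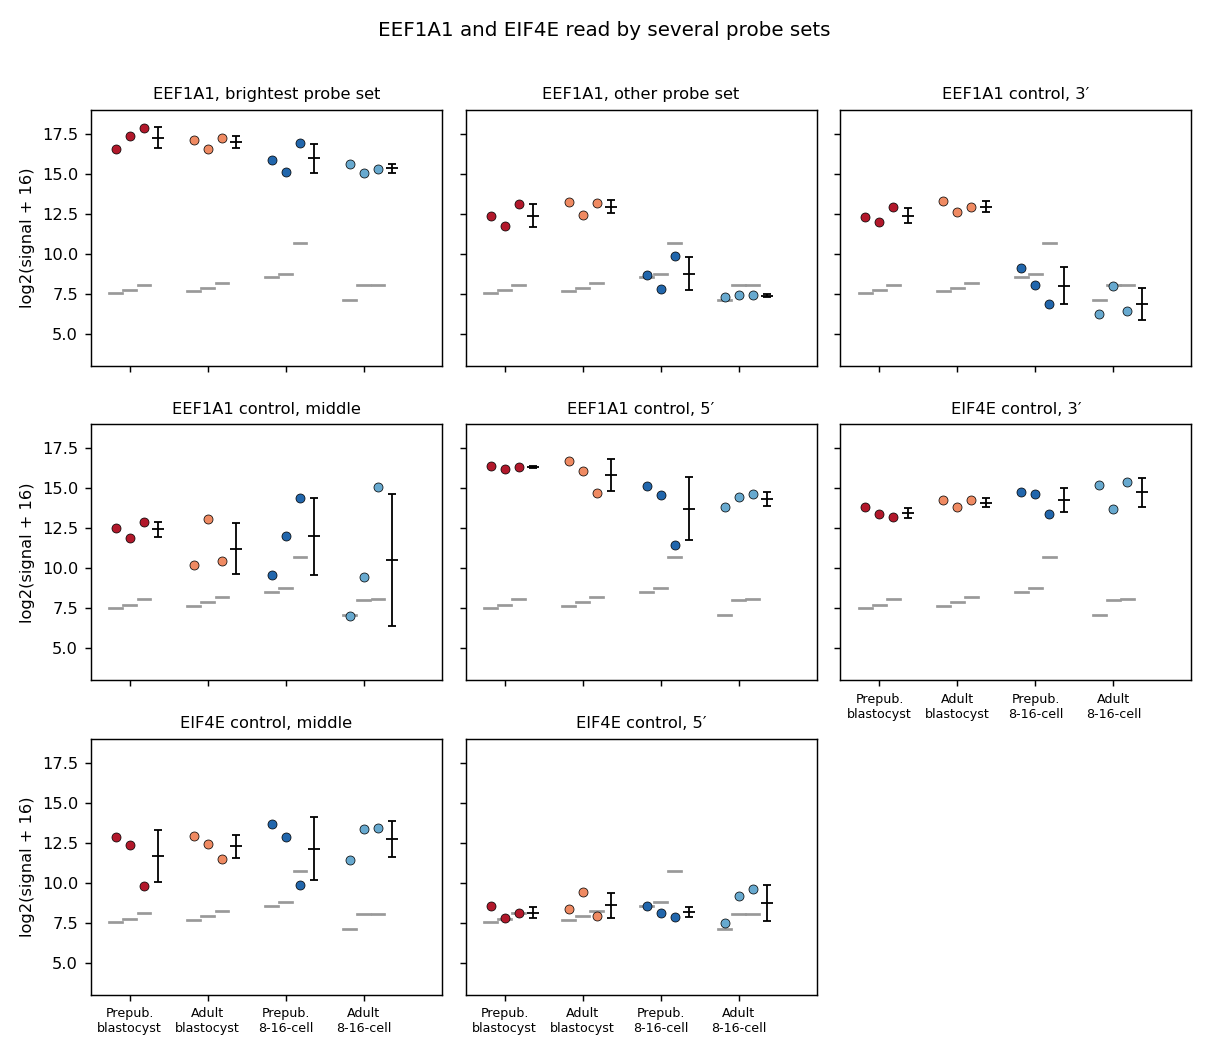
Log2(signal + 16) on each array (points) for the brightest and the other EEF1A1 probe set, and for the control probe sets at the 3′ end, in the middle and at the 5′ end of EEF1A1 and EIF4E, with group mean and SD (black bars, n = 3) and array background (grey dashes). The other EEF1A1 probe set and the EEF1A1 3′ control lie higher in all 6 blastocyst pools and mostly at background in 8-16-cell pools, whereas the EIF4E controls overlap.

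Of the 16 members with more than 1 probe set, the 17 probe sets not used for the gene were mostly dim. 7 were above background on at least 3 arrays, 1, that of EEF1A1, passed in the stage comparison, and 12 had the sign of the probe set used on all 12 arrays. EIF5, with a second probe set above background on all 12 arrays, differed by -1.24 on it, where the first gave 0.09, and -0.91 without the array of high background. None of these passed.

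Within each donor group alone, few members passed. In prepubertal embryos 1 member rose, EEF1G, and 1 fell, EIF1, whose difference was -3.53 ± 1.02 (SE, adjusted p = 0.0350, limma). Over all probe sets 1.43% were called higher and 0.912% lower in that comparison. The EIF1 call in prepubertal embryos was lost in 11 of 23 other settings, with adjusted p up to 0.414. In adult embryos none of 50 members passed in limma, where 1.26% of all probe sets were called higher and 0.870% lower. At an unadjusted p under 0.05 there were 6 members on the higher and 3 on the lower side, and 6.37% and 4.77% of all probe sets. Without the array of high background, EEF1A1, EIF2B4 and EIF1 passed in adult embryos, where 1.97% of all probe sets were called higher and 1.34% lower. The stage differences of both donor groups enter the mean used above, so they are not separate evidence for it.

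The donor comparison asked whether embryos from prepubertal heifers differ from those of adult cows at the same stage. No translation factor passed at either stage. In 8-16-cell embryos none of 50 passed in limma, against 0.0208% of all probe sets, and 8 had an unadjusted p under 0.05, with 4 in each direction, where 6.96% of all probe sets had one on the higher and 2.06% on the lower side. In blastocysts none of 50 passed, against 0% of all probe sets, and 1 had an unadjusted p under 0.05, as did 3.68% of all probe sets. The donor groups did not overlap for 5 members on the higher and 5 on the lower side in 8-16-cell embryos, where 10.0% and 2.67% of all probe sets did so. In blastocysts it was 3 and 3 members, where 6.04% and 3.78% of all probe sets did so. With 3 arrays against 3, a difference had a median SE of 1.33 on the log2 scale over the members. Even fitted 8-16-cell differences of -4.03 (EEF1G) and 3.64 (EIF4EBP1) did not pass, so large donor differences could have been missed. The median donor difference of the members was 0.23 in 8-16-cell embryos, against 0.59 for all probe sets. It was -0.21 under quantile normalization, against 0.05 for all probe sets, and -0.37 with arrays centred, against -0.01. In blastocysts it was 0.17, against 0.16 for all probe sets, and -0.10 with arrays centred, against -0.10. The median of all probe sets thus moved down with that of the members in these settings.

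EEF1G had the smallest p for a donor difference in 8-16-cell embryos. Its prepubertal pools were at background, and the fitted difference of -4.03 ± 1.38 (SE, adjusted p = 0.389, limma) amounts to at least 1.72-fold lower in prepubertal embryos. In blastocysts the prepubertal pools lay above the adult pools without overlap, at 1.45 ± 1.38 (SE, adjusted p = 0.9996, limma). The donor difference in blastocysts minus that in 8-16-cell embryos was 5.48 ± 1.96 (SE) and did not pass (adjusted p = 0.873, limma). It was the single member with an unadjusted p under 0.05 for that difference, as 5.44% of all probe sets had, and no member passed, against 0% of all probe sets. The next by p were EEF1A2, with every array at background, and EIF3A at -2.06 ± 1.36 (SE).

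EIF3J had the smallest p for a donor difference in 8-16-cell embryos among members above background on every array. It read 12.83, 12.83 and 11.25 in prepubertal blastocysts and 12.90, 13.05 and 13.40 in adult blastocysts, against 12.16, 12.35 and 11.11 in prepubertal 8-16-cell embryos and 14.70, 14.30 and 14.89 in adult 8-16-cell embryos. Prepubertal pools lay below adult pools without overlap at both stages. The donor difference was -2.76 ± 1.01 in 8-16-cell embryos (SE, adjusted p = 0.407, limma) and -0.81 ± 1.01 in blastocysts. EIF3E had a donor difference of -2.36 ± 0.95 in 8-16-cell embryos (SE, adjusted p = 0.457, limma), which was -0.41 without the array of high background.

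EIF4EBP1 read 6.89, 8.00 and 8.44 in prepubertal blastocysts and 6.80, 5.27 and 5.82 in adult blastocysts, against 8.45, 7.82 and 9.01 in prepubertal 8-16-cell embryos and 4.36, 4.53 and 5.49 in adult 8-16-cell embryos. The donor groups were apart at both stages, but all 8-16-cell arrays and all adult blastocyst arrays were at background, so no fold is given for the fitted 8-16-cell difference of 3.64 (adjusted p = 0.407, limma). The arrays of prepubertal 8-16-cell embryos also had the higher background, as the hybridization controls did, and the part of this in the value was not tested. In blastocysts, EIF3G differed by 3.14 ± 1.40 between prepubertal and adult donors (SE, adjusted p = 0.9996, limma) without overlap. EIF4E3, a further cap-binding protein, read 9.90, 7.70 and 10.37 in prepubertal blastocysts and 8.63, 7.43 and 4.72 in adult blastocysts, against 7.28, 8.82 and 5.76 in prepubertal 8-16-cell embryos and 4.33, 7.93 and 7.35 in adult 8-16-cell embryos. Its donor difference in blastocysts was 2.40 and that of EIF2D -2.36, and neither passed.

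**Figure D5:**
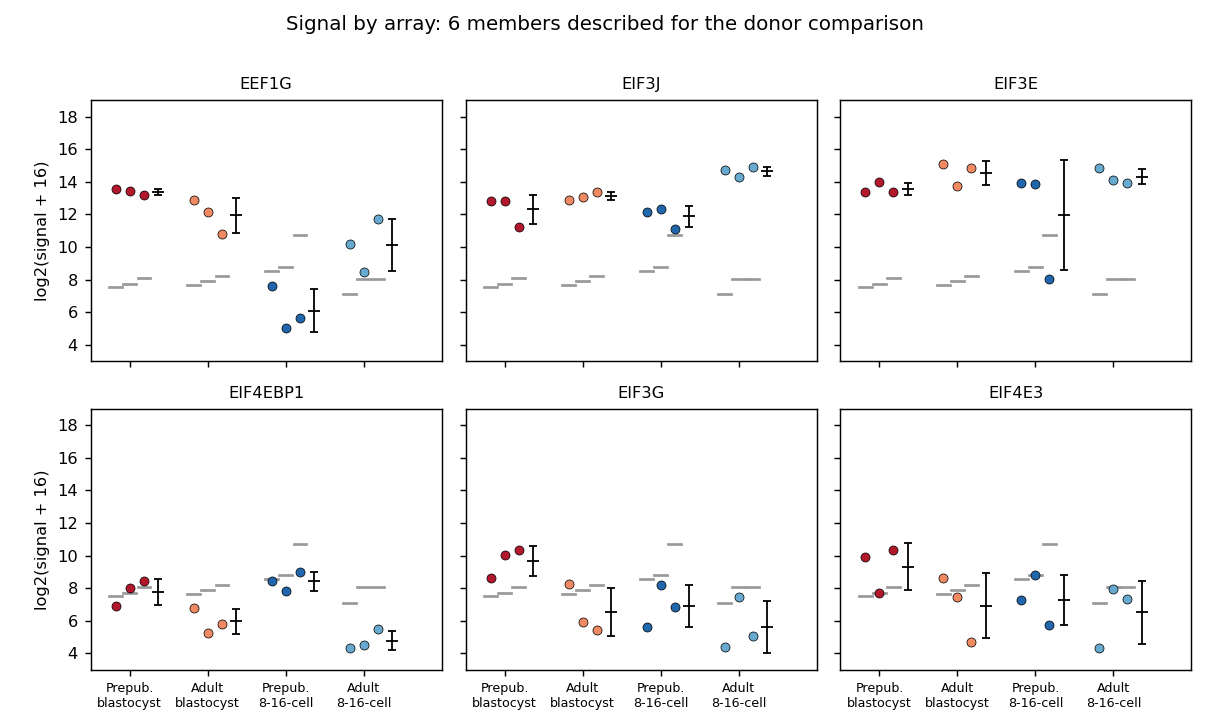
Log2(signal + 16) of 6 members on each array (points), with group mean and SD (black bars, n = 3) and array background (grey dashes). EIF3J is dimmer in prepubertal than in adult pools at both stages, EEF1G is dimmer in prepubertal 8-16-cell pools and brighter in prepubertal blastocyst pools, and EIF4EBP1 lies at or near background. None of these donor differences passed an adjusted p of 0.05.

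Genes that work beside these factors were counted in the same mean stage comparison. There 6.35% of all named genes were called higher and 3.53% lower. Whether the share of any list differs from these was not tested, so 1 called gene is no result about its list. Of 18 cytosolic aminoacyl-tRNA synthetases and their scaffold proteins, which charge tRNAs with amino acids, 5 rose in blastocysts, none fell and 13 did not pass. AARS1 rose at least 7.54-fold, EPRS1 by 5.14 ± 1.04, GARS1 by 3.92 ± 0.97, TARS1 by 3.46 ± 1.05 and IARS1 by 3.19 ± 1.02 on the log2 scale (SE). The median of the 18 was 2.26, against -0.17 for all probe sets.

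Of 14 genes of termination, recycling and poly(A) binding, 1 rose, 1 fell and 12 did not pass. PABPC1, the main cytoplasmic poly(A)-binding protein, averaged 13.50 ± 1.14 in prepubertal blastocysts and 12.84 ± 0.16 in adult blastocysts, against 8.05 ± 1.75 in prepubertal 8-16-cell embryos and 12.02 ± 1.46 in adult 8-16-cell embryos (SD, n = 3 each). It rose by 3.13 ± 0.87 (SE, adjusted p = 0.0108, limma). In prepubertal embryos alone the difference was 5.44 (adjusted p = 0.00257, limma), and in adult embryos alone 0.82 (adjusted p = 0.921, limma). PAIP1, a partner of PABPC1 that stimulates initiation, averaged 11.20 ± 0.76 in prepubertal blastocysts and 9.51 ± 0.65 in adult blastocysts, against 14.27 ± 0.79 in prepubertal 8-16-cell embryos and 14.51 ± 0.09 in adult 8-16-cell embryos (SD, n = 3 each). It fell by 4.03 ± 0.78 on the log2 scale (SE, adjusted p = 5.8e-05, limma).

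Of 18 genes that signal to initiation, 1 rose, FMR1, an RNA-binding repressor of translation, by 4.03 on the log2 scale (adjusted p = 0.00318, limma), and 17 did not pass. Of 10 mitochondrial translation factors, the elongation factor GFM1 rose by 3.80 ± 1.03 (SE), the release factor MTRF1L fell by 3.97 ± 0.94 on the log2 scale (SE), and 8 did not pass. In prepubertal embryos alone FMR1, GFM1 and MTRF1L passed, at 5.35, 5.44 and -4.97, with FMR1 and GFM1 at background in every prepubertal 8-16-cell pool. In adult embryos alone they did not pass, at 2.71, 2.15 and -2.97. Markers of other cells were also counted in that comparison, where 6.35% of named genes were called higher and 3.53% lower. Of 12 cumulus and granulosa genes, 5 were above background on 0 arrays, 1 (STAR) was lower in blastocysts by -3.57 ± 1.04 (SE) and 11 did not pass. None of 3 blood or 4 sperm genes passed. The log2 of the summed cumulus and granulosa signal ran between 10.60 and 11.58 in prepubertal blastocysts and between 11.47 and 12.05 in adult blastocysts, against 10.82 to 13.87 in prepubertal 8-16-cell embryos and 10.43 to 12.10 in adult 8-16-cell embryos, and its part in the stage differences was not tested.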

How the data were processed

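RNA of 12 pools was amplified with WT-Ovation Pico and hybridized to an Affymetrix bovine array, per the labels. The deposited values are signal intensities, made by the authors with MAS5 per the submitters' processing notes. Its version and settings: not given in the sources used here. Each array's mean signal, trimmed by 2% at each end, lay between 500.2 and 500.3. No column belonged to another series (0).

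Gene names came from the platform annotation, with current symbols from the RefSeq table of ARS-UCD2.0. The deposited linear intensities were turned into log2(signal + 16), and the 112 control probe sets were left out. limma 3.58.1 estimated 4 group means from the 12 arrays together (R 4.3.3, lmFit, eBayes with trend), leaving 8 residual degrees of freedom. The prior had a median of 195.7 degrees of freedom. Each limma SE therefore mostly reflects the spread of probe sets of similar signal, and little that of the gene's own pools. Two-sided p-values were adjusted after Benjamini and Hochberg across 24016 probe sets, and 0.05 was the threshold. The fit was tested on simulated data. The exact tests were run in SciPy 1.17.1. The number of arrays limits the precision. Pools that are not from separate animals or culture days would make the spread technical.

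Background was the highest of 27 Bacillus subtilis control probe sets. It was not checked whether such RNAs had been spiked in, which would set this level too high. A group with no array above background gives a bound for the fold, the brighter mean over the dimmer one with each signal raised to at least its array's background.

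The members and lists were chosen with earlier results of these data known. Members given with every array were EIF1AX, those called in any comparison, the 2 of smallest p and the 1 of highest mean signal in each role, and the 3 of smallest p in each donor comparison. Other pseudocounts, normalizations, filters, variance models, a replicate block, averaged probe sets and leaving out each array were tried.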

Additional observations from a re-analysis of the deposited data

Results flagged for a closer look

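EEF1G was singled out because its prepubertal and adult pools were apart at both stages and lay in opposite order. The measured values of the 3 prepubertal pools exceeded those of the 3 adult pools in blastocysts and lay below them in 8-16-cell embryos. The 3 prepubertal 8-16-cell values were at background, so that order is not established for every pool, and the 8-16-cell difference of the means is only bounded, at least 1.72-fold lower in prepubertal embryos. The donor difference in blastocysts minus that in 8-16-cell embryos was 5.48 on the log2 scale, did not pass after adjustment (adjusted p = 0.873, limma), and ranged between 1.78 and 6.30 over 22 other settings, none of which passed.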

How the results depend on the processing

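In adult embryos, where 0 members passed, the stage comparison gave 1 with a pseudocount of 1 or 64, under quantile normalization, without the variance trend and with probe sets of a gene averaged. It gave 2 with only probe sets above background on 3 or more arrays, with array weights and with the replicate block, 3 with only the groups compared, and 0 to 3 when single arrays were left out. In prepubertal embryos, where 2 passed, it gave 1 with arrays centred, without the variance trend, with array weights, with only the groups compared and with averaged probe sets, 0 with signals floored at the highest background, and 1 to 2 when single arrays were left out. In the mean of both donor groups, where 8 passed, it gave 4 with floored signals, 3 of them among the 8, and 13 with the filter on dim probe sets, which contained all 8, and 6 to 12 when single arrays were left out. The cause of these shifts was not tested, except that the filter left 9807 probe sets to adjust over. In the main fit of that mean 3.90% of all probe sets were called higher and 2.51% lower. Without replicate 3 of the prepubertal 8-16-cell embryos it was 4.10% and 2.86%. Shares of all probe sets under the other settings are not given, so these counts are no result about the members alone. EIF3E had a stage difference between -0.025 and 1.45 when single arrays were left out, and turned negative only without replicate 3 of the prepubertal 8-16-cell embryos. Deviations of pools with the same replicate number correlated between -0.03 and 0.05 over 18 pairs. These correlations run over all probe sets, many at background, and cannot show whether such pools shared animals, bull or culture day. With the replicate block, 8 members passed in the mean stage comparison, the same 8. No member passed in a donor comparison under any setting run. Signals near background limit the dim members: with floored signals the differences of EIF2B4, EIF3D and EIF3I shrank to 0.37, 0.54 and 0.56.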
